A study of Homo sapiens with 12 samples.

Results

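The spread between wells of the same condition was measured in cancer tissue from a perfused culture plate (AngioPlate), over all 12 of the 12 libraries. The tissue was the MDA-MB-231 line carrying green fluorescent protein, a human breast cancer line without hormone receptors or HER2 amplification and with mesenchymal features, embedded in fibrin gel and taken for RNA sequencing 5 days after seeding under flow. In monoculture it was grown alone (libraries C2, C3, C4 and C6, replicates 1 to 4). In the hepatic co-culture it shared the device with tissue of HepG2 cells, a human liver tumour line, and 2% lung fibroblasts (H2, H3, H4 and H6). In the cardiac co-culture the partner tissue held cardiomyocytes made from induced pluripotent stem cells, and cardiac fibroblasts were 2% of it (CM1, CM2, CM5 and CM6). The 4 libraries of a condition are called biological replicates, but their seedings are not named. The p-values below therefore cover only the spread among these libraries, which may be technical. For each gene the log2 of the counts per 1e6 counts (CPM) in a library, minus the mean of that library's own condition, is called its residual. Genes with a mean of 5 CPM or more were used, which left 11124 of 58735 genes and 99.1% of all counts. The protein-coding genes nearest that limit were TLR5 (5.001 CPM) just inside it and NUDT18 (4.99 CPM) just outside it.

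A total of 3 gene programmes were followed. When oxygen is short, the hypoxia-inducible factors (HIF) escape breakdown and switch on genes for glucose uptake, glycolysis, blood vessel growth and pH control, CA9, VEGFA and NDRG1 among them. Dividing cells transcribe DNA replication genes before S phase, largely under E2F factors, and mitosis genes before division, largely through CHR and CCAAT promoter elements. Inflammatory signals act through NF-kB, which induces chemokines such as CXCL8 and its own inhibitors, such as TNFAIP3. Each programme was summarised in a library by an index, the mean residual over its measured genes: 27 HIF target genes for oxygen, 58 cell cycle genes for growth and 24 NF-kB genes for inflammation.

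Promoter sequences of these programmes are shown for the members that stood highest or lowest on the main axis of well-to-well variation and hold the sequence searched. They were chosen after these values were seen. Each is the 250 bases before the transcription start from RefSeq (GRCh38.p14), read 5′ to 3′ on the gene's strand. In the HIF targets CA9 (chr9:35673678-35673927, plus strand), PPFIA4 (chr1:203026241-203026490, plus strand) and LOX (chr5:122078260-122078509, minus strand), capitals mark the hypoxia response core ACGTG on either strand.
CA9: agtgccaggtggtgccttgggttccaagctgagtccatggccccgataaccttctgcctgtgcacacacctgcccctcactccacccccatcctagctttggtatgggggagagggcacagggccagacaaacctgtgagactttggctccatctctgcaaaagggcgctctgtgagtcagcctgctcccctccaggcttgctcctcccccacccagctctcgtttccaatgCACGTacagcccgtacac
PPFIA4: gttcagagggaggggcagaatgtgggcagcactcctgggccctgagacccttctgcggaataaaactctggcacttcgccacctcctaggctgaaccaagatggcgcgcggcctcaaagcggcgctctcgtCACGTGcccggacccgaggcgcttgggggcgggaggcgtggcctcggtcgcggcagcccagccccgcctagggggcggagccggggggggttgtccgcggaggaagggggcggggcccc
LOX: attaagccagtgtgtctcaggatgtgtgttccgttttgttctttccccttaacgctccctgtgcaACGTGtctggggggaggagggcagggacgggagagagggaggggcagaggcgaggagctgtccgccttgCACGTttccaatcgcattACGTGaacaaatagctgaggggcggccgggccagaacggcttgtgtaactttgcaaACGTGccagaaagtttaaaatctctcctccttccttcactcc
In the DNA replication genes GINS2 (chr16:85688955-85689204, minus strand) and CHAF1A (chr19:4402390-4402639, plus strand), capitals mark an E2F sequence, which was TTGGCGC or TTCGCGC or TTCCCGC on either strand.
GINS2: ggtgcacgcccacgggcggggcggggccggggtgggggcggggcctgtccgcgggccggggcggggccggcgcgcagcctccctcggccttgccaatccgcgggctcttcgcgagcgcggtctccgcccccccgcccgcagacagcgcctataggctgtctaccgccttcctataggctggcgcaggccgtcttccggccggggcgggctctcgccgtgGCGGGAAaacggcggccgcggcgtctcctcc
CHAF1A: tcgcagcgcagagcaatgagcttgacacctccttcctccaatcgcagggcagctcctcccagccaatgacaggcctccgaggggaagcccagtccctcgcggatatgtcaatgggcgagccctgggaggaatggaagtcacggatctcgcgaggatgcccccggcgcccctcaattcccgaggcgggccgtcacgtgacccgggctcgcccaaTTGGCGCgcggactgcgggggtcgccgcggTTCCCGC
In the mitosis genes CDC20 (chr1:43358731-43358980, plus strand) and CENPA (chr2:26785806-26786055, plus strand), capitals mark the CHR sequence TTTGAA and the CCAAT box, on either strand.
CDC20: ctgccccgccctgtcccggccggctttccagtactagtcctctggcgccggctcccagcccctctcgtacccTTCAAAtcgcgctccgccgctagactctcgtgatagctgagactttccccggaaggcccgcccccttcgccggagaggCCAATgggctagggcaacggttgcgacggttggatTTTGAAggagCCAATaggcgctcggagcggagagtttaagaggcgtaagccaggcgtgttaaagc
CENPA: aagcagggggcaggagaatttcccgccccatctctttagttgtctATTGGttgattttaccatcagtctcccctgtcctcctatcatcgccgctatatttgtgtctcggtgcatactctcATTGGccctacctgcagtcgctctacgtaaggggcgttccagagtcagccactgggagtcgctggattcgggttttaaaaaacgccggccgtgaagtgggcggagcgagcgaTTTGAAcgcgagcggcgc
ACGTG was found in 12 of the 22 HIF targets with a promoter in the RefSeq table (54.5%), in 24.2% of the 8737 promoters matched among the genes used and in 18.7% of all 27305 promoters. It was also in 34.6% of the DNA replication and 39.1% of the mitosis promoters. With GCGTG counted as well, a match was in 17 of the 22 HIF targets (77.3%). It was then in 69.2% of the DNA replication and 60.9% of the mitosis promoters, 58.9% of those of the genes used and 43.1% of all. An E2F sequence was found in 15 of 26 DNA replication promoters (57.7%), against 17.4% of the mitosis and 22.7% of the HIF target promoters, 15.99% of those of the genes used and 9.51% of all. CHR was found in 16 of 23 mitosis promoters (69.6%) and 13.6% of all, and the CCAAT box in 19 of 23 (82.6%), in 15 of 26 DNA replication promoters (57.7%) and in 33.0% of all. Each motif was searched on its own, so matches of different motifs may overlap. A match is a description of these letters in this window and no evidence of binding.

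Library totals ranged from 26.2 to 42.4 M counts, where M stands for 1e6, and mitochondrial transcripts took 4.64 to 6.01% of the counts. Markers of the labelled line were present: the lowest level of VIM, CD44 and AXL in any library was 308.9 CPM, while ESR1 and PGR had at most 8 counts and CDH1 at most 21. EPCAM, an epithelial marker, lay between 5.91 and 9.13 CPM. Of the defining markers of the partner tissues, ALB had 0 to 14 counts and the fibroblast gene POSTN 0 in all 12 libraries. Other fibroblast genes had more: COL1A2 had 25 to 77 counts in monoculture, 53 to 276 in the hepatic and 37 to 84 in the cardiac libraries, COL3A1 had 0 to 12, 10 to 44 and 2 to 16, and DCN 33 to 124, 4 to 18 and 50 to 71. MYH6 and MYL7, a myosin heavy and a myosin light chain of heart muscle, had 21 and 8 counts in CM6 and 0 in the other 11 libraries. Other defining cardiomyocyte markers were not confined to CM6. MYH7 had 0 counts in CM6 and 1 in H3, and TNNT2 had 2 in CM6 and 4 in C6. TNNI3 had 2 in CM6 and 7 in H3, and ACTC1 had 14 in CM6 and 10 in C3. The summed level of 20 cardiomyocyte markers was 15.8 to 19.9 CPM in monocultures, 20.3 to 22.4 CPM in hepatic and 19.2 to 21.6 CPM in cardiac libraries, with CM6 at 20.9 CPM. The sum of 20 hepatocyte markers, mostly SERPINA1, was 66.1 to 103 CPM, 49.5 to 85.0 CPM and 103 to 140 CPM. The sum of 14 fibroblast markers was 13.3 to 21.6 CPM, 8.36 to 15.6 CPM and 12.9 to 15.8 CPM, and that of 10 endothelial markers 98.1 to 109 CPM, 130 to 145 CPM and 116 to 134 CPM. Their part in the results was not tested. In bulk tissue, fewer cells of a kind and less RNA per cell cannot be told apart.

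Most genes varied little between wells. The median residual SD was 0.14 on the log2 scale, 98 genes exceeded 0.5 and 9 genes exceeded 1. The common biological coefficient of variation was 11.6%, with 10.1% for monocultures, 11.7% for hepatic and 12.9% for cardiac libraries taken alone. It was 9.18% in monoculture without C3, 8.89% in the hepatic libraries without H2 and 8.80% in the cardiac libraries without CM6. Of the variance summed over genes, 56.8% lay between conditions and the remainder between wells of a condition. By edgeR's quasi-likelihood test, 4193 of 11124 genes (37.7%) differed between conditions at an adjusted p under 0.05. Among them were 20 of 24 NF-kB genes, 12 of 27 HIF targets and 9 of 58 cell cycle genes.

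The gene that varied most was CA9 (chr9:35673856-35681159 in GRCh38, GENCODE 29), a carbonic anhydrase at the cell surface that HIF induces. In monoculture it had 0.886 CPM in C2, 8.55 CPM in C3, 0.0928 CPM in C4 (4 counts) and 0.278 CPM in C6. Its counts in C2, C3 and C6 were 32, 333 and 10. It reached a mean of 5 CPM only through the co-cultures, so its monoculture residuals rest largely on low counts. In the hepatic co-culture it had 23.4, 8.35, 10.1 and 9.99 CPM in H2, H3, H4 and H6, while CM1, CM2, CM5 and CM6 of the cardiac co-culture had 20.9, 27.3, 20.9 and 2.93 CPM. C3 was therefore as high as the hepatic library H3, while CM6 lay below every hepatic library, and the residual SD was 1.73. NDRG1, another HIF target and a far more abundant gene, gave the same picture with a residual SD of 0.94. It had 311, 908, 115 and 255 CPM in C2, C3, C4 and C6, 2095, 1370, 1603 and 1363 CPM in the hepatic libraries, and 1883, 2372, 1546 and 483 CPM in the cardiac ones. C3 again stood above the other monocultures and CM6 below the other cardiac libraries. Of the 27 HIF targets, 15 were among the 100 genes with the highest residual SD, with PPFIA4 (1.29) between CA9 and NDRG1, and ADM (0.93), EGLN3 (0.92) and LOX (0.67) after them.

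**Figure D1:**
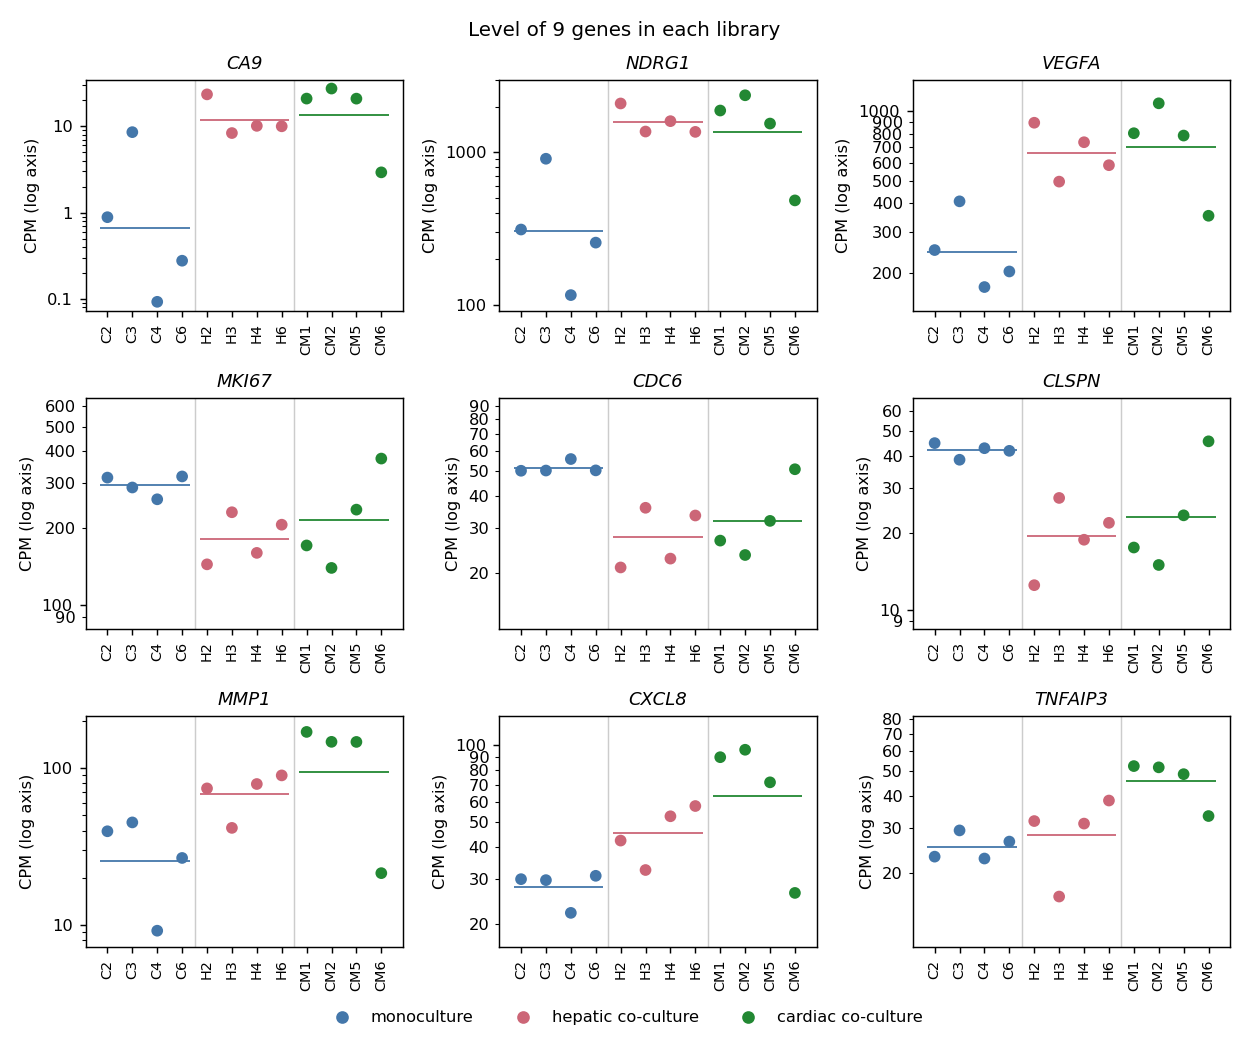
Level in CPM (log axis) of 9 genes in each of the 12 libraries, with points coloured by condition and lines at the geometric mean of the 4 libraries. CA9, NDRG1 and VEGFA are high in C3 and low in CM6 for their condition, MKI67, CDC6 and CLSPN are high in CM6, and MMP1, CXCL8 and TNFAIP3 are low in CM6.

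The other genes of the 12 protein-coding genes with the highest residual SD had mixed roles. MMP10 (chr11:102770503-102780628) and MMP1 (chr11:102789920-102798160), genes for secreted proteases that cut extracellular matrix, had residual SDs of 1.38 and 1.06. MMP10 lay below 5 CPM in each monoculture, with 43 counts in C4, and had 43 counts in CM6. MMP1 had 39.6, 45.1, 9.23 and 26.8 CPM in C2, C3, C4 and C6, 74.2, 41.6, 79.1 and 89.7 CPM in H2, H3, H4 and H6, and 170, 147, 146 and 21.4 CPM in CM1, CM2, CM5 and CM6. Its low libraries were C4 and CM6. DEPP1, a target of FOXO factors, had a residual SD of 1.00 and ranged from 10.9 CPM in C4 to 74.98 CPM in C3 within monoculture. PAEP, which encodes the secreted glycoprotein glycodelin, had a residual SD of 1.05, and in monoculture C4 (0.58 CPM) lay below the other libraries (4.86 to 7.86 CPM). LBP, which encodes the lipopolysaccharide-binding protein, had 103 to 212 CPM in CM1, CM2 and CM5 and 28.6 CPM in CM6. XAGE1B, a cancer/testis antigen gene with close copies and therefore uncertain counts, had a residual SD of 0.95 at a mean of 5.09 CPM.

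U2AF1, a splicing factor gene second in the order with a residual SD of 1.68, and EIF3CL (0.997) are uncertain because each has a near-identical copy to which counting can assign its reads. With its copy U2AF1L5 added, U2AF1 had a residual SD of 0.97, against 1.67 alone on the same scale (a pseudocount of 0.1). EIF3CL with EIF3C had 0.55 against 0.99 alone, and GPR89B with GPR89A had 0.37 against 0.71. Their residual SD was thus lower once the copy was added. U2AF1 had an r of 0.25 with the main axis described next and EIF3CL 0.06.

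**Figure D2:**
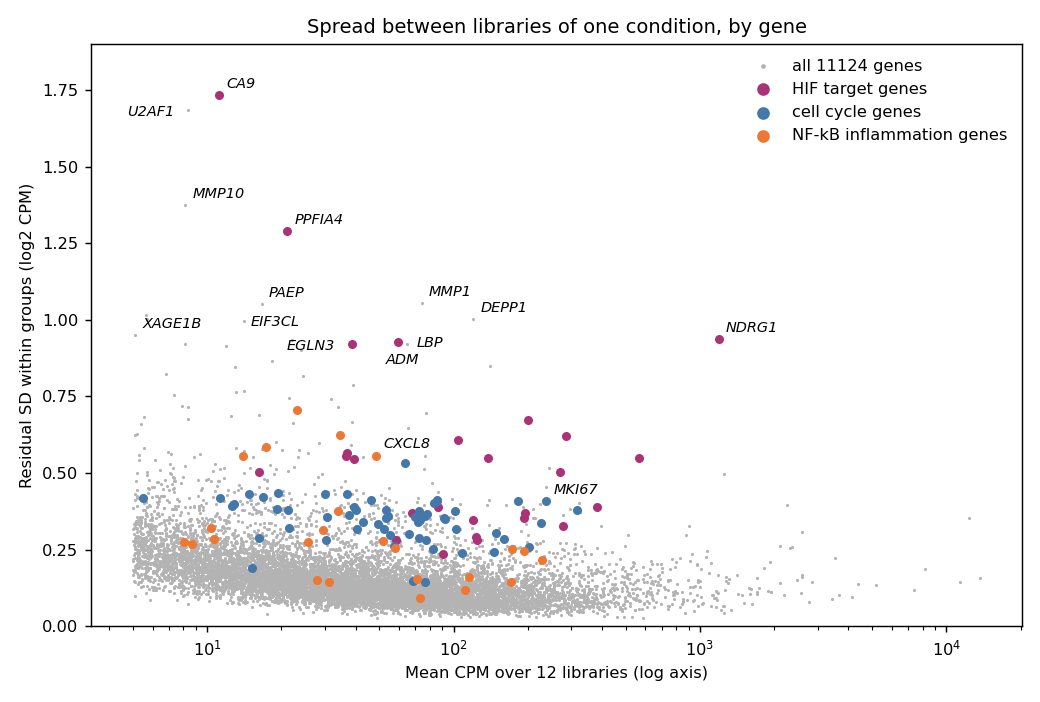
Residual SD within conditions (log2 CPM) against mean CPM (log axis) for all 11124 genes, with the 3 programmes coloured. HIF targets have means from 11.1 CPM (CA9, residual SD 1.73) to 1192 CPM (NDRG1, 0.94), and the highest cell cycle gene is CENPE at 0.53.

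To see which genes varied together, the residuals of all genes used were decomposed into uncorrelated axes. The first axis held 37.3% of the well-to-well variance, the second 18.2% and the third 9.96%. Scores on the first axis were -1.24, 10.9, -7.70 and -1.98 in C2, C3, C4 and C6. They were 10.8, -8.28, 3.58 and -6.14 in H2, H3, H4 and H6, and 8.11, 14.7, 0.88 and -23.7 in CM1, CM2, CM5 and CM6. CM6 lay farthest from 0 at the low end, and CM2, C3 and H2 at the high end. On the second axis H2 stood apart at -17.1, while the other 11 libraries lay between -9.003 and 7.75.

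The axis was not one of oxygen alone. HIF targets lay at its high end and cell cycle genes at its low end, while matrix proteolysis genes had a positive r with it in 11 of 14 cases. The highest effects, given as the log2 change per SD of the axis score, belonged to CA9 (1.37), MMP10 (1.1), DEPP1 (0.92), LBP (0.89), MMP1 (0.86), ADM (0.85), SLITRK6 (0.84) and NDRG1 (0.82). Without CM6 these effects were 0.69 for CA9, 0.034 for MMP10, 0.52 for DEPP1, 0.47 for LBP, 0.15 for MMP1, 0.50 for ADM, 0.49 for SLITRK6 and 0.36 for NDRG1, so the place of MMP10 and MMP1 on the axis depended on that library. The lowest belonged to CYP1A1 (-0.67), a detoxifying enzyme induced through the aryl hydrocarbon receptor, and ID3 (-0.58), an inhibitor of differentiation induced by BMP signals. They were followed by ZNF488 (-0.54), MUC5AC (-0.54), ADGRB2 (-0.49), CLSPN (-0.46), PSMC3IP (-0.46) and FAM72D (-0.44). CLSPN encodes the replication checkpoint protein claspin and PSMC3IP a factor of homologous recombination. FAM72D has close copies, so its counts are uncertain. Without CM6 the effects were -0.20 for CYP1A1, -0.089 for ID3, -0.16 for MUC5AC and -0.27 for ADGRB2, and -0.36 for ZNF488, -0.33 for CLSPN, -0.35 for PSMC3IP and -0.34 for FAM72D.

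Across the 12 libraries the axis score had an r of 0.84 with the oxygen index, -0.93 with the growth index and 0.81 with the inflammation index. These are descriptions, because the genes of the indices were part of the decomposition. All 27 HIF targets had a positive r with the axis (median 0.83), and all 30 DNA replication genes (median -0.91) and all 28 mitosis genes (median -0.87) a negative one. Of the NF-kB genes, 21 of 24 were positive (median 0.61), with BIRC3, NFKBIE and NFKB1 negative. Over all 11124 genes 48.4% were positive and the median r was -0.03.

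Lists outside the 3 indices also ran along the axis. Interferon-stimulated genes had a negative r in 16 of 17 cases (median -0.85), with IFI27 the exception, and ribosomal protein genes a positive one in 38 of 38 (median 0.73). Glycolysis genes were positive in 15 of 16 (median 0.73, with PFKM negative), matrix and crosslinking genes in 25 of 26 (median 0.61, with COL1A1 negative) and immediate early genes in 15 of 17 (median 0.69). Heat shock protein genes were negative in 13 of 16 (median -0.59). YAP and TAZ targets (median -0.10) and p53 targets (median 0.29) were split between both signs.

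**Figure D3:**
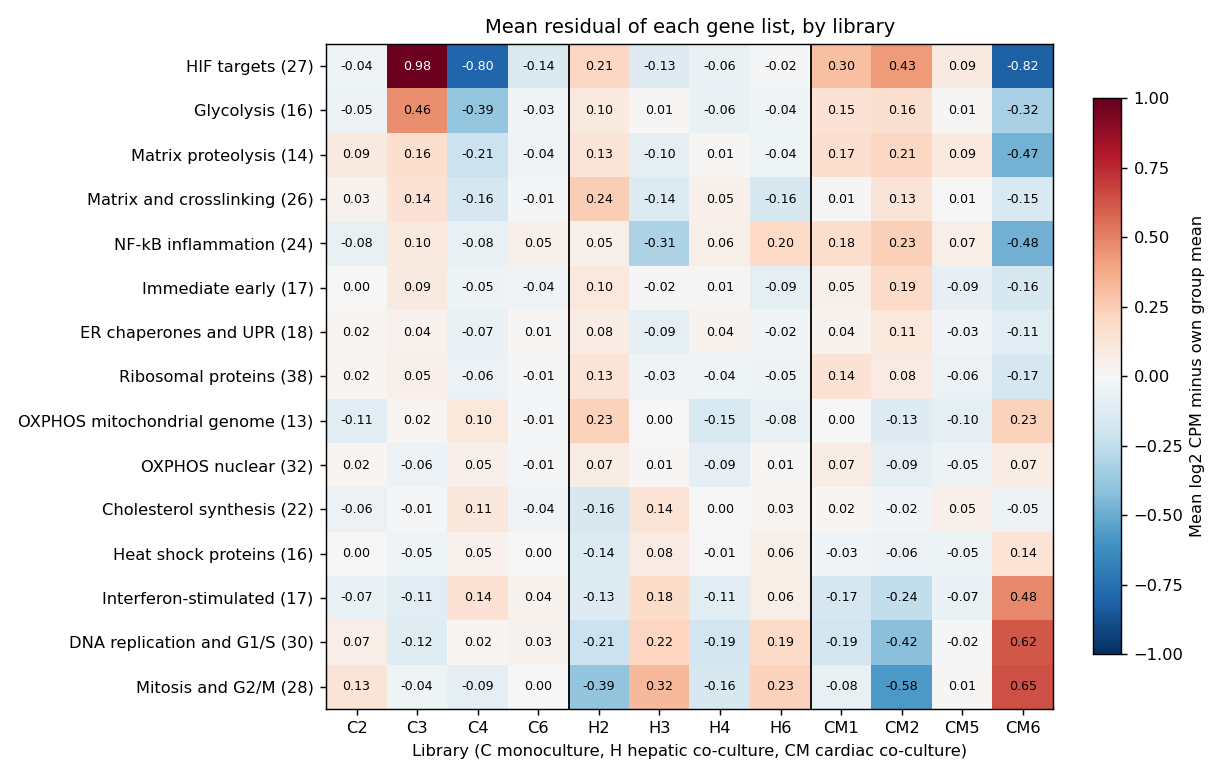
Mean residual (log2 CPM) of 15 gene lists in each library, with the number of measured genes in brackets. HIF targets reach 0.98 in C3 and -0.82 in CM6, DNA replication and mitosis genes reach 0.62 and 0.65 in CM6, and the hepatic libraries H2 and H3 differ most in mitosis genes (-0.39 and 0.32).

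The span of the indices differed between conditions. The oxygen index was -0.04, 0.98, -0.80 and -0.14 in C2, C3, C4 and C6, 0.21, -0.13, -0.06 and -0.02 in H2, H3, H4 and H6, and 0.30, 0.43, 0.09 and -0.82 in CM1, CM2, CM5 and CM6. Monoculture thus spanned 1.77 and the cardiac co-culture 1.24, but the hepatic co-culture 0.33. The growth index was 0.10, -0.08, -0.03 and 0.02 in the monocultures, -0.30, 0.27, -0.18 and 0.21 in the hepatic libraries, and -0.13, -0.49, -0.01 and 0.63 in the cardiac ones. It spanned 0.18 over monocultures, 0.57 over hepatic and 1.13 over cardiac libraries. The inflammation index was -0.08, 0.10, -0.08 and 0.05 in the monocultures, 0.05, -0.31, 0.06 and 0.20 in the hepatic libraries and 0.18, 0.23, 0.07 and -0.48 in the cardiac ones, with spans of 0.18, 0.50 and 0.71. The oxygen index thus had the widest span of the 3 in monoculture and in the cardiac libraries, and the growth index in the hepatic libraries. These differences in span were not tested, and the indices were not scaled for the spread of their genes. The median residual SD was 0.50 for HIF targets, 0.34 for DNA replication, 0.37 for mitosis and 0.27 for NF-kB genes.

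**Figure D4:**
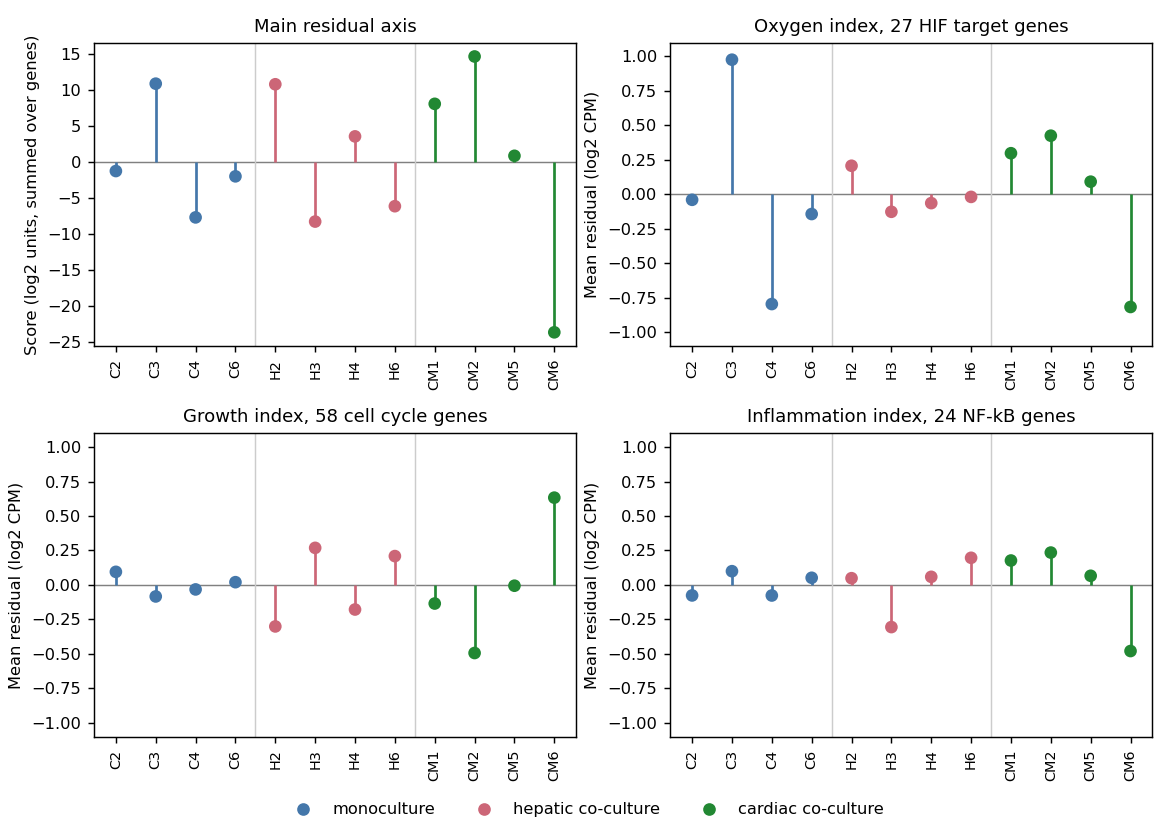
Score on the main residual axis and the 3 indices (mean residual, log2 CPM) in each library, coloured by condition, with 0 at the mean of the condition. The oxygen index ranges from -0.80 to 0.98 in monoculture, where the growth index stays between -0.08 and 0.10, and CM6 is the extreme cardiac library in all 4 panels.

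Next, each index was entered beside condition in a fit over the 12 libraries with edgeR's quasi-likelihood test, and the genes of the index itself were left out of the counts. A slope is the log2 change of a gene per log2 unit of the index. With the oxygen index, 343 of 11097 genes (3.09%) had a positive and 181 (1.63%) a negative slope at an adjusted p under 0.05. Glycolysis genes followed it: 13 of 16 were called, all positive. ENO2, a glycolytic enolase, had 92.4, 191, 63.2 and 86.5 CPM in C2, C3, C4 and C6 and 330, 381, 284 and 157 CPM in CM1, CM2, CM5 and CM6, so C3 was high and CM6 low. Its oxygen slope was 0.95 ± 0.05 (SE, edgeR adjusted p = 3.1e-09). PGK1, the glycolytic phosphoglycerate kinase, had a slope of 0.91 ± 0.06 (edgeR adjusted p = 2.5e-08) and the lactate-producing LDHA 0.44 (edgeR adjusted p = 0.00080).

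The smallest p-values among other genes belonged to STC1, a secreted glycoprotein hormone, ENO2, and RIMKLA, an enzyme that makes N-acetylaspartylglutamate. STC1 had 14.3, 38.5, 5.98 and 12.5 CPM in the monocultures C2, C3, C4 and C6, 52.96, 40.7, 39.8 and 42.1 CPM in the hepatic libraries and 72.9, 71.2, 55.0 and 22.9 CPM in the cardiac ones. Within monoculture its level in C3 was above that in the other libraries, and its slope was 1.45 ± 0.07 (SE, edgeR adjusted p = 3.5e-10). Among negative slopes, CPT1A, which brings fatty acids into mitochondria, had a slope of -0.36 ± 0.05 (edgeR adjusted p = 0.00012). ID1, a BMP target like ID3, had a slope of -0.48 ± 0.07 (edgeR adjusted p = 0.00029) and the torsin ATPase gene TOR3A -0.47 ± 0.07 (edgeR adjusted p = 0.00058). Of the cell cycle genes, 6 of 30 DNA replication genes and 0 of 28 mitosis genes had a called negative slope by edgeR, beside 1.63% over all genes. Of the mitosis genes, 9 had a negative slope at an unadjusted p under 0.05. The count of 524 called genes was 102 without CM6, 268 without CM2, 296 without CM1, 343 without C6, 348 without CM5 and 877 without H2. Of the other lists, 7 of 26 matrix and crosslinking genes were called, all positive, beside 3.09% over all genes. PLOD2, a collagen lysyl hydroxylase, had a slope of 0.63 ± 0.08 (edgeR adjusted p = 0.00012) and TGFBI, an extracellular matrix protein induced by TGF-beta, 0.92 ± 0.16 (edgeR adjusted p = 0.0075).

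With the growth index, 865 of 11066 genes (7.82%) had a called positive and 667 (6.03%) a called negative slope. The sum of 1532 was 720 without CM6 and 865 without CM2. The smallest p-values among positive slopes belonged to ZWINT, a kinetochore protein, NCAPH, a condensin subunit, and ATAD2, a chromatin factor. NCAPH had 52.8, 44.2, 49.9 and 49.8 CPM in C2, C3, C4 and C6, 22.9, 34.9, 25.01 and 33.4 CPM in H2, H3, H4 and H6, and 27.5, 19.9, 31.1 and 55.3 CPM in CM1, CM2, CM5 and CM6. H3 and H6 were above H2 and H4, CM6 lay above every other library, and the slope was 1.249 ± 0.095 (SE, edgeR adjusted p = 2.8e-07). These genes take part in cell division but are not among the 58 of the index.

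Interferon-stimulated genes also followed the growth index, with called positive slopes in 12 of 17, beside 7.82% over all genes. OASL, an oligoadenylate synthetase-like antiviral protein, had 72.7, 56.5, 73.4 and 79.2 CPM in C2, C3, C4 and C6, 35.4, 58.8, 41.9 and 50.4 CPM in H2, H3, H4 and H6, and 33.2, 31.3, 45.3 and 77.8 CPM in CM1, CM2, CM5 and CM6. CM6 lay within the range of the monocultures, and the slope was 1.21 ± 0.13 (edgeR adjusted p = 3.4e-06). OAS2 and OAS3, which sense double-stranded RNA, had slopes of 1.06 and 1.15, and IFIT1 had 1.06 (edgeR adjusted p = 0.010, 0.00040 and 0.0024). Heat shock protein genes had called positive slopes in 6 of 16, beside the same 7.82%, HSP90AA1 among them with 0.55 ± 0.17 (edgeR adjusted p = 0.039).

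Other genes had negative slopes with the growth index. SCG2, which encodes the granule protein secretogranin II, had 43.7, 18.5, 44.6 and 20.9 CPM in H2, H3, H4 and H6 and 30.2, 40.8, 21.4 and 8.54 CPM in CM1, CM2, CM5 and CM6, so the libraries high in NCAPH were low in SCG2. Its slope was -2.20 ± 0.24 (edgeR adjusted p = 1.2e-05). JUNB, an AP-1 subunit, had -0.93 ± 0.11 (edgeR adjusted p = 1.7e-05) and CCNI, an atypical cyclin, -0.72 ± 0.08 (edgeR adjusted p = 6.1e-06). Beside 6.03% over all genes, immediate early genes had called negative slopes in 7 of 17, NF-kB genes in 8 of 24, ER chaperone and unfolded protein response genes in 6 of 18, ribosomal protein genes in 9 of 38, matrix and crosslinking genes in 5 of 26 and HIF targets in 4 of 27. XBP1, the transcription factor of the unfolded protein response, had -0.78 ± 0.12 (edgeR adjusted p = 0.00019). RPL10, a ribosomal protein gene whose processed copies make its counts uncertain, had -0.61 ± 0.11 (edgeR adjusted p = 0.0016).

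With the inflammation index, 94 of 11100 genes (0.847%) had a called positive and 230 (2.07%) a called negative slope. The smallest p-values among positive slopes belonged to ZC3H12A, a ribonuclease that degrades inflammatory transcripts, FILIP1L and TRIB3, a pseudokinase induced by ATF4. ZC3H12A had 34.6, 39.2, 37.0 and 37.2 CPM in the monocultures, 37.6, 26.4, 34.95 and 42.1 CPM in H2, H3, H4 and H6, and 67.0, 69.0, 63.1 and 41.9 CPM in CM1, CM2, CM5 and CM6. H3 was the lowest of all 12 libraries and CM6 lay within the range of the hepatic ones, and its slope was 1.09 ± 0.14 (SE, edgeR adjusted p = 0.0019). Among negative slopes the smallest p-values belonged to DNMT1, the maintenance DNA methyltransferase (-1.05 ± 0.16, edgeR adjusted p = 0.0072), TTI1, which stabilises large checkpoint kinases, and the helicase gene MCM8. DNA replication genes were called negative in 17 of 30 cases and mitosis genes in 11 of 28, beside 2.07% over all genes. MMP10 had a slope of 4.92 ± 1.04 (edgeR adjusted p = 0.040). Without CM6 the count called with the inflammation index by edgeR was 0, with 250 genes at an unadjusted p under 0.05. It was 5 without CM1, 2 without CM2, 84 without C3, 94 without C4, 120 without CM5, 165 without C2, 198 without H4, 599 without H2 and 1329 without H6, against 324 with all libraries.

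A well-known member of each programme shows the levels. VEGFA, the vessel growth factor, had 251, 408, 174 and 203 CPM in C2, C3, C4 and C6, 894, 497, 736 and 586 CPM in H2, H3, H4 and H6, and 805, 1085, 787 and 354 CPM in CM1, CM2, CM5 and CM6. It also had a negative slope with the growth index (-1.45 ± 0.34, edgeR adjusted p = 0.023). MKI67, the proliferation marker, ranged from 260 to 319 CPM in monoculture and from 145 to 231 CPM in the hepatic libraries, and had 171, 140, 237 and 375 CPM in CM1, CM2, CM5 and CM6. CXCL8 had 22.1 to 30.9 CPM in monoculture, 32.5 to 57.9 CPM in the hepatic libraries and 89.8, 96.0, 71.6 and 26.5 CPM in CM1, CM2, CM5 and CM6, so CM6 lay in the monoculture range. CCNB1 and CDC6, a mitotic cyclin and a replication licensing factor, followed MKI67 with an axis r of -0.90 and -0.92, while CCNE2, a cyclin of the G1/S step, had -0.43. Of IL6 and TNFAIP3, IL6 had an axis r of 0.89 and TNFAIP3 0.62, and CCL2 was too low to be used (a mean of 0.060 CPM).

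The 3 indices were then compared in pairs, by two-sided exact permutation of libraries within their condition with Benjamini-Hochberg adjustment over the 3 pairs. Oxygen and growth had r = -0.59 (p = 0.011, adjusted 0.016) and rho = -0.64 (p = 0.023), and their residuals had opposite signs in 10 of 12 libraries. Oxygen and inflammation had r = 0.66 (p = 0.0056, adjusted 0.016) and rho = 0.78 (p = 0.014), with opposite signs in 3 of 12 libraries. Growth and inflammation had r = -0.78 (p = 0.051, adjusted 0.051) and rho = -0.54 (p = 0.14), which missed the threshold of 0.05. When the 2 libraries farthest from the median of the first index were left out of the correlation, r was -0.48, 0.55 and -0.43 in this order. With C3 and CM6 left out and the condition means taken anew, oxygen and growth had r = -0.28 (exact permutation p = 0.27) and oxygen and inflammation 0.36 (exact permutation p = 0.18). Growth and inflammation then had r = -0.37 (exact permutation p = 0.52), and no pair passed the threshold. Without H6 alone, growth and inflammation had r = -0.95 (exact permutation p = 0.0035), and without CM6 alone -0.39 (exact permutation p = 0.48). Without CM6 alone, oxygen and growth had r = -0.27 (exact permutation p = 0.090) and oxygen and inflammation 0.36 (exact permutation p = 0.085).

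In the repeat without C3 and CM6, the growth index had the r farthest from 0 with the main axis. This axis ran mainly between the hepatic libraries, so it is not the earlier axis seen again in every condition. C3 (0.98) and CM6 (-0.82) had the oxygen indices farthest from 0, and CM6 also those of growth (0.63) and inflammation (-0.48). Leaving them out narrows these ranges, so the repeat cannot weigh oxygen against growth. The axis then held 33.7% of the variance, and its gene effects had an r of 0.62 with the earlier ones over 11100 shared genes. The highest score was that of H2 (20.5), with CM2 at 7.57, and the lowest were those of H3 (-10.4) and H6 (-10.1). The monocultures C2, C4 and C6 had only -2.57, 1.09 and 1.48. Their spread lay on the second axis, with 12.1, -13.2 and 1.06. The r of the main axis was -0.90 with the growth index, 0.35 with the oxygen index and 0.26 with the inflammation index. Cell cycle genes had a negative r in 29 of 30 and 28 of 28 cases, while HIF targets were positive in 20 of 27 (median 0.30) and NF-kB genes in 19 of 25 (median 0.12). The 13 protein-coding genes of the mitochondrial genome, 11 of which were negative with all libraries, were all positive (median 0.49). Interferon-stimulated genes were negative in 11 of 17. The sign of this axis was again set by the mean of the HIF targets, and the share of all genes positive on it is not given here.

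**Figure D5:**
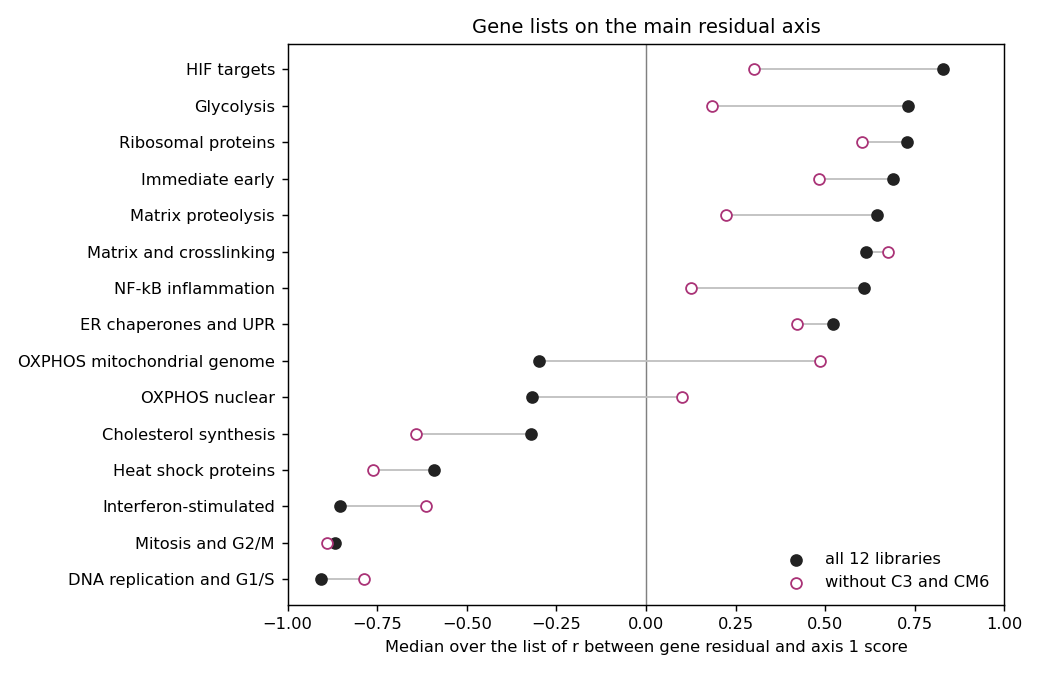
Median over each list of the correlation (r) between a gene's residual and the score on the main axis, with all 12 libraries (filled) and without C3 and CM6 (open). DNA replication and mitosis genes have medians of -0.79 and -0.89 without these libraries, whereas HIF targets move from 0.83 to 0.30, NF-kB genes from 0.61 to 0.12 and mitochondrially encoded genes from -0.30 to 0.49.

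Fewer genes were called with each index in this repeat. With the growth index 423 genes (3.82%) had a called positive and 290 (2.62%) a called negative slope, and 513 of these 713 genes were among the 1532 called with all libraries. With the oxygen index 8 (0.0721%) were positive and 1 (0.00902%) negative, and all 9 were among the 524 called before. With the inflammation index 0 of 11093 genes (0%) were called in either direction by edgeR, with 181 at an unadjusted p under 0.05. STC1 and ENO2 kept their positive slopes with oxygen (1.53 ± 0.18 and 0.81 ± 0.13, edgeR adjusted p = 0.0014 and 0.026), as did RIMKLA (1.16, edgeR adjusted p = 0.049). The negative slopes of CPT1A, ID1 and TOR3A were -0.28, -0.18 and -0.33 and were no longer called (edgeR adjusted p = 0.85, 0.94 and 0.90). ZWINT and NCAPH kept theirs with growth (1.38 ± 0.14 and 1.14 ± 0.16, edgeR adjusted p = 2.3e-05 and 0.00034), and SCG2 its negative one (-2.07 ± 0.25, edgeR adjusted p = 9.1e-05). Of the lists, 4 of 17 interferon-stimulated genes had called positive slopes with growth and 3 of 16 glycolysis genes with oxygen. ISG15, an interferon-induced ubiquitin-like modifier, had a slope of 0.63 ± 0.20 with growth (edgeR adjusted p = 0.069), against 0.92 ± 0.14 (edgeR adjusted p = 0.00018) with all libraries.

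The most variable genes changed in part. U2AF1, EIF3CL, PAEP and PPFIA4 had residual SDs of 1.87, 1.11, 1.08 and 0.96 without C3 and CM6. CA9 then had 0.83, MMP10 0.73, MMP1 0.66 and NDRG1 0.47. Of the 100 genes with the highest residual SD, 60 were shared with the order over all libraries.

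C3 and CM6 differed from their own conditions in genes of opposite direction. The largest positive residuals of C3 were those of CA9 (3.42), PPFIA4 (2.34), TMEM45A (1.75) and EGLN3 (1.64), a HIF-induced oxygen sensor. The first 2 rest in part on low counts in C4, which were 4 for CA9 and 22 for PPFIA4. The lowest residuals of C3 were those of CYP1A1 (-0.87), GPR89B (-0.73), ID3 (-0.72) and BAMBI (-0.69), a decoy receptor of TGF-beta signals. In CM6 the lowest were MMP10 (-2.99), CA9 (-2.21), MMP1 (-2.13) and LBP (-1.74), and the highest ID3 (1.53), CYP1A1 (1.39), MUC5AC (1.33) and HASPIN (1.05), a mitotic histone kinase. CYP1A1 and ID3 were thus low in C3 and high in CM6. CYP1A1 had 14.8, 13.5, 73.9 and 24.9 CPM in C2, C3, C4 and C6 and 3.21, 4.51, 5.12 and 15.3 CPM in CM1, CM2, CM5 and CM6, so its highest library was C4.

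Each condition decomposed alone gave a different mixture. The first axis held 55.1% of the variance for monocultures, 58.8% for hepatic and 69.3% for cardiac libraries, where 3 axes share the whole. In monoculture it ran from C4 (-16.4) to C3 (14.2), with all 27 HIF targets positive but cell cycle genes split, 32 of 58 negative. In the hepatic libraries it set H2 (21.2) against H3 (-10.7) and H6 (-9.87), with 56 of 58 cell cycle genes negative and 20 of 27 HIF targets positive. In the cardiac libraries it set CM6 (-25.1) against CM2 (14.9) and CM1 (9.45), with all 58 cell cycle genes negative and all 27 HIF targets positive. The sign of each axis was set so that HIF targets have a positive mean, which favours positive HIF targets. The share of all genes positive on these axes is not given here. Across genes, the effects of the monoculture and hepatic axes had an r of 0.05, monoculture and cardiac 0.45, and hepatic and cardiac 0.35 (genes are not independent replicates). An axis computed on the other 8 libraries held 10.2% of the variance of the monocultures, 7.34% of that of the hepatic and 13.8% of that of the cardiac libraries.

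The position of single wells between the conditions followed from these residuals. The mean level of the 27 HIF targets was 1.08 log2 units higher in the hepatic and 1.31 higher in the cardiac co-culture than in monoculture, but C3 (6.61 log2 CPM) lay above H3 (6.59), and CM6 (6.13) lay below all hepatic libraries. The mean level of the cell cycle genes was 0.49 and 0.50 lower in the hepatic and cardiac co-culture, yet CM6 (6.15 log2 CPM) was the highest of all 12 libraries, above C2 (6.11). For NF-kB genes, 0.27 and 0.64 higher in the hepatic and cardiac co-culture, H3 (4.92) lay within the monoculture range of 4.88 to 5.06 and CM6 (5.12) just above it. Across genes the axis effect had an r of 0.65 with the difference of hepatic co-culture from monoculture and 0.76 with that of cardiac co-culture, and 0.58 for the latter with CM6 left out of both. These share libraries, and genes are not independent replicates.

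Library measures moved with the axis too. Its score had r = 0.83 with the share of counts taken by the 50 highest genes (exact permutation p = 0.0011, adjusted 0.0043 over 4 measures), which ranged from 13.7 to 17.1%. The 50 highest genes were themselves part of the decomposition, so this result is a description. The r of the axis score with the library total was -0.58 (exact permutation p = 0.065), with the number of genes at 10 counts or more -0.53 (exact permutation p = 0.12) and with the mitochondrial share -0.18 (exact permutation p = 0.64). Without the 2 libraries farthest from the median of the measure, r was 0.87, -0.22, -0.18 and -0.10 in the same order. CM6 had the highest total of the cardiac libraries (37.4 M) and H3 that of the hepatic ones (42.4 M). The part of these measures in the results was not tested. No batch, date or plate position of the wells is given in the labels.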

How the data were processed

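The cancer tissue of 12 wells, 4 for each of the 3 conditions, gave 12 poly(A)-selected libraries, per the labels' protocols. The authors deposited 1 table of unnormalised read counts for 58735 Ensembl genes. Per the submitters' processing notes, HISAT2 2.2.1, featureCounts 2.0.6, DESeq2 1.42.0 and the GRCh38 build were used. Strand setting, annotation release and read filters: not given in the sources used here. Both a stranded and a non-stranded kit are described, so reads from overlapping or antisense genes may not be told apart. All 58735 IDs matched GENCODE 29, which gave names and coordinates.

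Counts were scaled by TMM and turned into log2 CPM with a prior count of 2 (edgeR 4.0.16, R 4.3.3). Residuals, with 9 degrees of freedom, were taken from the mean of the library's own condition for genes with a mean of 5 CPM or more. The residual matrix was decomposed by singular values, with the sign set so that HIF targets have a positive mean. Each index was tested beside condition in edgeR's robust quasi-likelihood test, with Benjamini-Hochberg adjustment over all genes and a threshold of 0.05, and the difference among the 3 conditions by an F test of the same model. Index pairs and library measures were tested by exact permutation within conditions. The genes named are the 12 protein-coding genes with the highest residual SD, the 8 highest and 8 lowest on the axis, 12 known genes of the programmes, the 3 with the smallest p in each direction of each index fit, the 4 highest and 4 lowest residuals of C3 and CM6, and list members given as examples. The members and lists were chosen with earlier results of these data known.

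Depth was 26.2 to 42.4 M counts per library, and no pair of libraries agreed within sampling noise. On data simulated with 11124 genes, 200 of them were changed. The smallest change in the index fits was 1.25-fold per SD of the index. Of these genes, 91.0% were recovered for oxygen, 89.6% for growth and 91.0% for inflammation. The smallest change between conditions was 1.25-fold in the hepatic libraries alone, where 26.9% were recovered, so the shares are not on one scale. Of the calls, 4%, 9.52%, 5.42% and 5.63% were false in this order, so growth lay above the threshold of 5%. The unchanged genes were drawn independently of each other, whereas the real residuals co-varied. These shares may therefore not hold for the index fits on the real data. Same-numbered biological replicates of different conditions had r between -0.37 and 0.38 in their residuals, with 4 of 12 pairs over 0.1. Differently numbered pairs were not set beside them, so these values cannot show whether the libraries are paired. The main fits used no pairing, and fits with a replicate block are given below. Alternatives covered scaling, filters, prior count, DESeq2 1.42.0, other indices, blocks and left-out libraries.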

Additional observations from a re-analysis of the deposited data

Results flagged for a closer look

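In 17 of 183 groups of 4 libraries (9.29%), 1 library of a named gene lay so far from the other 3 that the gap exceeded Dixon's 95% critical value. Chance flags about 1 in 20 groups, but many of these genes were chosen for their spread or for their residual in C3 or CM6, so the share cannot be read against that rate. In monoculture, C3 stood apart for MUC5AC (45.6 CPM, low), FILIP1L (22.5 CPM, high), TRIB3 (30.4 CPM, high) and BAMBI (4.21 CPM, low). C4 stood apart for CDC6 (55.7 CPM, high) and CXCL8 (22.1 CPM, low).

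In the hepatic co-culture, H4 stood apart for ID3 (13.8 CPM, high) and CCNE2 (2.46 CPM, low), and H2 for ID1 (105.8 CPM, high). In the cardiac co-culture the library was CM6 in all 8 cases. It was low for CA9 (2.93 CPM), MMP10 (1.13 CPM), MMP1 (21.4 CPM), TNFAIP3 (33.4 CPM), RIMKLA (12.9 CPM) and FILIP1L (11.4 CPM), and high for ID1 (158.2 CPM) and TOR3A (48.4 CPM).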

How the results depend on the processing

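With each library left out in turn, the genes called with the oxygen index numbered 102 to 877, with growth 720 to 1729, with inflammation 0 to 1329, and those differing between conditions 3019 to 5138. The axis share was 29.4 to 42.4%, and r was -0.74 to -0.27 for oxygen and growth, 0.36 to 0.78 for oxygen and inflammation and -0.95 to -0.39 for growth and inflammation. Without C3 and CM6 the counts were 9, 713 and 0 (edgeR, 181 at an unadjusted p under 0.05), the axis share 33.7%, r -0.28 and 0.36 for the oxygen pairs, r of the mitochondrial share with the axis 0.62 (exact permutation p = 0.17) and the axis effect of MMP10 -0.12. Without H2 and C4, chosen after seeing the data, 1027 genes were called with oxygen and 540 with inflammation, and the axis share was 46.8%. With no filter 1132 and 1029 were called with oxygen and inflammation, and by DESeq2 926 and 845. With VEGFA alone as index 1560 were called with oxygen, and with the 3 indices in 1 model 118, 360 and 0 (edgeR, 421 at an unadjusted p under 0.05). The axis share was 26.9% at a mean of 1 CPM or more, 42.7% at 20 CPM or more, 27.7% with residuals of unit SD, and 55.1, 58.8 and 69.3% for the monoculture, hepatic and cardiac libraries alone. For growth and inflammation, r was -0.78 with upper-quartile scaling (exact permutation p = 0.050), -0.81 at 20 CPM or more (exact permutation p = 0.027) and -0.79 with unit SD (exact permutation p = 0.036). The cause of these differences was not tested. Index pairs within single conditions were not run, because 4 libraries are too few for a correlation.

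With the replicate block, 89, 404 and 197 genes were called with the oxygen, growth and inflammation index. Under this block r was -0.55 for oxygen and growth (exact permutation p = 0.16) and -0.84 for growth and inflammation (exact permutation p = 0.032), and the axis share was 35.2%. Blocking on the digit in the library name gave 81, 249 and 132 genes, and 2589 for the difference between conditions. Neither numbering is stated to pair the libraries.

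The genes named for the smallest p of each fit, 6 an index, were refitted under the alternatives. Direction and call were kept in 144 of 144 growth slopes, 137 oxygen slopes (7 no longer past the threshold) and 118 inflammation slopes (26 no longer past it). These genes were chosen for their small p in the same libraries, so their refits say little about the other calls. The growth slope of ISG15, not among them, was no longer called without C3 and CM6. Axis effects kept their direction in 341 cases, though often not their size. No date, plate or position of the wells is given in the labels, and depth limits the genes nearest 5 CPM most.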
